A study of Drosophila melanogaster with 3 samples.

Results

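The small nucleolar RNA (snoRNA) genes of Drosophila melanogaster and the promoters of the genes that host them were examined for binding of Neu2, a zinc-finger protein with a ZAD domain. The members were all 269 genes of biotype snoRNA on 2L, 2R, 3L, 3R, X and 4, the 6 main arms of the dm6 build, each with the same-strand gene whose body contains it as its host. Of these, 247 lay in a host, 10 lay only in a gene on the opposite strand and 12 lay in no gene. SnoRNAs that shared a host were joined, so that a peak counted once. This gave 112 groups, 90 with a host and 22 single snoRNAs without one. The 95 host genes were 84 protein-coding genes, 10 ncRNA genes and CR33222, which has neither biotype. The annotation of the 6 arms held 13945 protein-coding and 3261 ncRNA genes in all. The chromatin immunoprecipitation came from whole embryos, male and female together, aged 2 to 4 h per the source label, of a stable transgenic fly line in which GFP was joined to the C-terminus of Neu2. The antibody recognised GFP, chromatin was sonicated, and fragments measured 200 to 800 bp. The 3 biological replicates formed 1 group, so values were compared between positions in the genome and not between conditions. Binding was that of the tagged protein, the labels used here did not name the promoter driving it, and in whole embryos the share of nuclei bound and the strength of binding per nucleus could not be told apart.

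SnoRNAs guide the chemical modification of other RNAs. Box C/D snoRNAs direct 2′-O-methylation by fibrillarin, box H/ACA snoRNAs direct pseudouridylation by dyskerin (Nop60B in flies), and the related scaRNAs act on spliceosomal snRNAs in Cajal bodies. Most fly snoRNAs have no promoter of their own: they are cut from introns of a host transcript, often that of a ribosomal protein gene or of a long noncoding Uhg (U snoRNA host) gene, so the host promoter sets their transcription. The ribosomal protein genes and many translation genes of flies start at a pyrimidine-rich TCT initiator, and many housekeeping promoters carry the DNA replication-related element TATCGATA.

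The sequences of 4 snoRNAs whose hosts carried a peak show the kinds of gene concerned. All sequences are from the RefSeq copy of dm6 and read 5′ to 3′ on the strand of the gene. The H/ACA guides were snoRNA:Psi18S-920 in RpL10Ab (chr3L:11822984-11823124, plus strand) and snoRNA:Psi18S-1275 in RpS29 (chr3R:9778398-9778537, plus strand), with the ACA box in capitals. The C/D guides were snoRNA:Me28S-A774b in RpS12 (chr3L:13023580-13023652, plus strand) and snoRNA:Me18S-C1096 in RpL3 (chr3R:11222405-11222489, plus strand), with TGATGA (box C) and CTGA (box D) in capitals.
snoRNA:Psi18S-920: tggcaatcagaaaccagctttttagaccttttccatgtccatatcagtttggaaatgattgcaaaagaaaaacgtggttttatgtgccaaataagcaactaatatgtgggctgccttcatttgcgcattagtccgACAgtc
snoRNA:Psi18S-1275: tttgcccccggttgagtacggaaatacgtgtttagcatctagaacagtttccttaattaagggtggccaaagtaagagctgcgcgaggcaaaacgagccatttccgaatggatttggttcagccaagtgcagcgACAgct
snoRNA:Me28S-A774b: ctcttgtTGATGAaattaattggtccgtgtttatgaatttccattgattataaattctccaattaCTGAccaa
snoRNA:Me18S-C1096: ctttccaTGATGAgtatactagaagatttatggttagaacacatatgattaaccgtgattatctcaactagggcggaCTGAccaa

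The names of the snoRNA genes and their boxes went together. ACA stood 3 bases before the end in 101 of 106 genes named as pseudouridylation guides and in 0 of 77 named as methylation guides. TGATGA in the first 20 bases with CTGA in the last 15 was found in 59 of the 77 methylation guides and in 0 of the 106 pseudouridylation guides. The median length was 140 bp in the pseudouridylation guides and 79 bp in the methylation guides. The other genes were 46 with other names, 21 orphan snoRNAs (no assigned target in the name), 16 scaRNAs and 3 U3 genes.

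The promoters of 11 bound hosts are shown as examples with and without known promoter words, chosen by hand after their values were seen, so they show no share of hosts. Each is 100 bases long, with the transcription start site (TSS) nearest to the strongest summit at base 81. Where a summit lies more than 80 bp upstream or 19 bp downstream, as at Usp10, CG12316, RpL23A and RpL13A, it falls outside these bases. Capitals mark CCTTT or TCTTT near the TSS, the core of the TCT initiator, and TATCGA or its reverse complement. They lie at chr3L:11822771-11822870 (RpL10Ab, plus strand), chr3L:8600926-8601025 (RpL14, plus), chr3R:5624394-5624493 (RpL13A, plus), chrX:765111-765210 (RpL22, minus), chr3L:1668635-1668734 (RpL23A, minus), chr3R:11221814-11221913 (RpL3, plus), chr3L:13023272-13023371 (RpS12, plus), chr2L:19009287-19009386 (RpL30, minus), chr3L:13041676-13041775 (RpS4, plus), chr3L:872831-872930 (Usp10, plus) and chr3L:15136915-15137014 (CG12316, minus).
RpL10Ab: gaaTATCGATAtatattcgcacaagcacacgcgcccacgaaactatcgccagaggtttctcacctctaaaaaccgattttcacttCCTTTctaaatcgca
RpL14: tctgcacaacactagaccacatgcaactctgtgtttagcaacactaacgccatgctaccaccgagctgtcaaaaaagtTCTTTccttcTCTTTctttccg
RpL13A: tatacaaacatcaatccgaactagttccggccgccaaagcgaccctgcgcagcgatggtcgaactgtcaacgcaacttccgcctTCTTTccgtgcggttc
RpL22: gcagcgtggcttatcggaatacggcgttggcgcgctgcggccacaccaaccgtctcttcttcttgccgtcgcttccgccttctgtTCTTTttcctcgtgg
RpL23A: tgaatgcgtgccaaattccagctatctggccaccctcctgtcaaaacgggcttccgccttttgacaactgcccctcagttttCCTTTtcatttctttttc
RpL3: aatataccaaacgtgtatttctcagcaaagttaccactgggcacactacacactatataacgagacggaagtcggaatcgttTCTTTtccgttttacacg
RpS12: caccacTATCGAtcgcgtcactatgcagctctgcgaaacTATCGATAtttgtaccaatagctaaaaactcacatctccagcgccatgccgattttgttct
RpL30: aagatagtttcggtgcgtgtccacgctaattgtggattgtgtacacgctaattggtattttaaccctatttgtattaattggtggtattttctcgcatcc
RpS4: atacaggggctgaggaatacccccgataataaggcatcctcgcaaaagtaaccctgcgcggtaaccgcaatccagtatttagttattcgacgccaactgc
Usp10: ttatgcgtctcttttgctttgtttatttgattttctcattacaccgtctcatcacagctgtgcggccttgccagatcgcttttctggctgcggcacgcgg
CG12316: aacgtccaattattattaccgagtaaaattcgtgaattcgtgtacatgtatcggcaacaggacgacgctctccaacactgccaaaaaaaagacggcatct

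At RpL10Ab the snoRNA started 133 bp downstream of the TSS, and the summit of a peak fell on it. The first intron of this gene is printed from its first base to the end of the snoRNA (chr3L:11822891-11823124, plus strand), with snoRNA:Psi18S-920 in capitals. The TSS lies upstream of the first printed base, at position 11822851, and the summit of the second RpL10Ab peak falls on base 140, inside the snoRNA.
RpL10Ab intron: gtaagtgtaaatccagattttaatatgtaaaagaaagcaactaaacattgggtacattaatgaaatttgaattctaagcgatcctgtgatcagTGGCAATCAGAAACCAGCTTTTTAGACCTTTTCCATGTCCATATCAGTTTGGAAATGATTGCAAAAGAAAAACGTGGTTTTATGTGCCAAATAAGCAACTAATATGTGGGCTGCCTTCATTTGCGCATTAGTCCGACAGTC

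The question put to the lists was how many host promoters carried a Neu2-GFP peak and whether the peaks lay at the host TSS or at the snoRNA. The authors' optimal list held 1471 peaks that passed their irreproducible discovery rate (IDR) step, with a signal of 88.6 to 998. A group was called bound when at least 1 optimal summit was 1000 bp or less from a snoRNA start or a host TSS. Library depth is unknown, since no read counts were in the lists. The optimal peaks had a median signal of 47.0, 47.8 and 33.1 in replicates 1, 2 and 3. The relative signal is a replicate's signal divided by its own median, on which a typical optimal peak has the value 1.

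Neu2-GFP peaks were found at the promoters of 32 of the 95 host genes (33.7%, exact Clopper-Pearson 95% interval 24.3 to 44.1%), against 8.73% of all protein-coding genes. Among the 84 protein-coding hosts alone the share was 36.9% (31 genes, interval 26.6 to 48.1%), and both intervals lay above that background. The control was not analysed here, so how much of this share promoters would give without the tagged protein was not tested. Protein-coding hosts had more annotated start sites than protein-coding genes as a whole, with a mean of 1.99 against 1.41. Counting the 5′ end of each gene alone, the share was 26 of 84 (31.0%, interval 21.3 to 42.0%) against 7.77% of all protein-coding genes. Counted by group, 33 of 112 groups (29.5%, interval 21.2 to 38.8%) were bound, 32 through a host TSS and 1 through a snoRNA without a host. These bound hosts supplied 79 of the 269 snoRNAs.

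The count depended on how far the replicates had to share a peak. A peak was matched in a replicate when one of that replicate's 1471 calls of highest signal had a summit within 200 bp. Leaving out a replicate, so that only peaks matched in the remaining pair of replicates counted, left 21 bound groups without replicate 1, 18 without replicate 2 and 20 without replicate 3. The share of protein-coding genes fell alongside, to 4.72%, 5.26% and 5.16%. Each replicate taken by itself showed the pattern: among its 1471 calls of highest signal, replicate 1 had 27 of the 95 hosts (28.4%) against 8.74% of protein-coding genes, replicate 2 had 29 (30.5%) against 8.43%, and replicate 3 had 27 (28.4%) against 8.91%. A call of this kind was present in all 3 replicates at 16 hosts (16.8%, interval 9.94 to 25.9%) against 4.4% of protein-coding genes.

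The hosts were counted by class, and no difference between classes was tested. The host CR33222, neither protein-coding nor ncRNA, is in no class and had no optimal peak. Of the 29 hosts that encode cytoplasmic ribosomal proteins, 16 were bound (55.2%, interval 35.7 to 73.6%), and of the 59 ribosomal protein genes that hold no snoRNA, 20 were bound (33.9%, interval 22.1 to 47.4%). These intervals overlapped, so whether a snoRNA in the gene goes with more binding among ribosomal protein genes was not shown. In each replicate by itself the counts were 13, 13 and 12 of the 29 hosts and 16, 22 and 21 of the other 59. Of the 55 protein-coding hosts outside this family, 15 were bound (27.3%, interval 16.1 to 41.0%), above the 8.45% of the 13802 genes that were neither hosts nor ribosomal. Of the 10 ncRNA hosts 1 was bound, Uhg4, and 4.54% of all ncRNA genes were; at 10 genes the interval ran from 0.253 to 44.5%. The intervals of the 3 host classes overlapped.

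**Figure D1:**
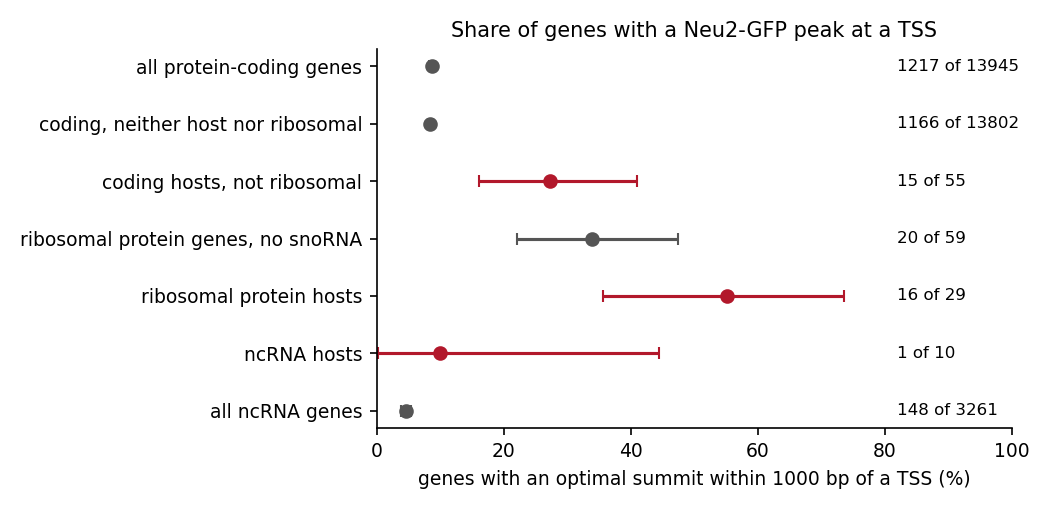
The horizontal axis gives the percentage of genes in each class with an optimal summit within 1000 bp of a TSS, points are the share, bars the exact 95% interval, and the counts stand at the right. The ribosomal protein hosts (55.2%) and the other coding hosts (27.3%) lie above all protein-coding genes (8.73%), while the interval of the 10 ncRNA hosts spans most of the other classes.

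The ribosomal protein hosts took 17 peaks with a median signal of 128, from 95.2 at RpS3A to 290 at RpL10Ab. Those of the large subunit were RpL10Ab, RpL23A, RpL22, RpL11, RpL14, RpL13A, RpL30, RpL3 and RpL28, and those of the small subunit RpS20, RpS4, RpS29, RpS5a, RpS16, RpS12 and RpS3A. The 21 peaks of ribosomal protein genes without a snoRNA had a median of 169, and all optimal peaks one of 119. The 18 peaks of other coding hosts had a median of 116 and the widest range, 90.0 to 516. Over all 37 member peaks the median was 121, close to that of the whole list.

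RpL10Ab (FBgn0036213), a protein of the large ribosomal subunit, had the strongest peak of this class, at 3L from 11822712 to 11822941 with its summit 25 bp upstream of the TSS. Its signal was 290 in the optimal list and 125, 92.2 and 80.4 in replicates 1, 2 and 3, or 2.34 ± 0.378 on the relative scale (SD, n = 3). All 3 replicates were above a typical peak. A second summit of signal 111 followed 204 bp downstream, 46 bp past the start of the snoRNA whose sequence is given above. It was the only one of the 1471 optimal summits that lay inside any snoRNA. Replicate 1 had no separate call within 200 bp of it, and in replicates 2 and 3 the same call matched both summits, so the second was not resolved from the first in single replicates.

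RpL23A (FBgn0026372), which shares its snoRNAs with the noncoding gene Uhg7, had a summit 121 bp upstream of the TSS at 3L from 1668555 to 1668994, with a signal of 216. Its signals in the replicates were 69.4, 96.0 and 46.4, or 1.63 ± 0.329 on the relative scale (SD, n = 3). RpL22 (FBgn0015288) shares snoRNA:Psi18S-531 with lncRNA:CR42491 and is the only host of snoRNA:Psi28S-2179. It had a signal of 185 at X from 764924 to 765363, 14 bp upstream, and 63.5, 62.2 and 62.1 in the replicates (1.51 ± 0.320). In both groups every replicate was above its median, and the summit fell at the start of the ribosomal protein gene, not at that of the noncoding host. RpL11 (FBgn0013325) had a signal of 181 at 2R from 19442098 to 19442537, 24 bp upstream, and 50.4, 102 and 33.0 in the replicates (1.40 ± 0.638). Here replicate 2 was high and replicate 3 stood at its median. RpL14 (FBgn0017579) had a signal of 178 at 3L from 8600759 to 8601198, 27 bp upstream, and 56.6, 71.6 and 42.8 in the replicates (1.33 ± 0.151), the closest agreement between replicates of these 5 genes.

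The small-subunit gene RpS20 (FBgn0019936) had a signal of 161 at 3R from 20821771 to 20822210, 190 bp upstream of its own TSS and 143 bp from that of the neighbour CG17271. Its replicates gave 66.9, 40.6 and 59.0 (1.35 ± 0.471), with replicate 2 below its median. RpL13A (FBgn0037351) had a signal of 154 at 3R from 5624145 to 5624584, 109 bp upstream, and 37.3, 80.2 and 48.3 in the replicates (1.31 ± 0.461), with replicate 1 below its median. Of the other 9 ribosomal protein hosts, RpS4 had 141, RpL30 128, RpS29 126, RpS5a 121, RpS16 114.97, RpL3 99.1, RpL28 97.0, RpS12 96.8 and RpS3A 95.2. None of these 9 was above the median in all 3 replicates. RpS3A was the only group on arm 4 and holds a single snoRNA, CD-24.

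**Figure D2:**
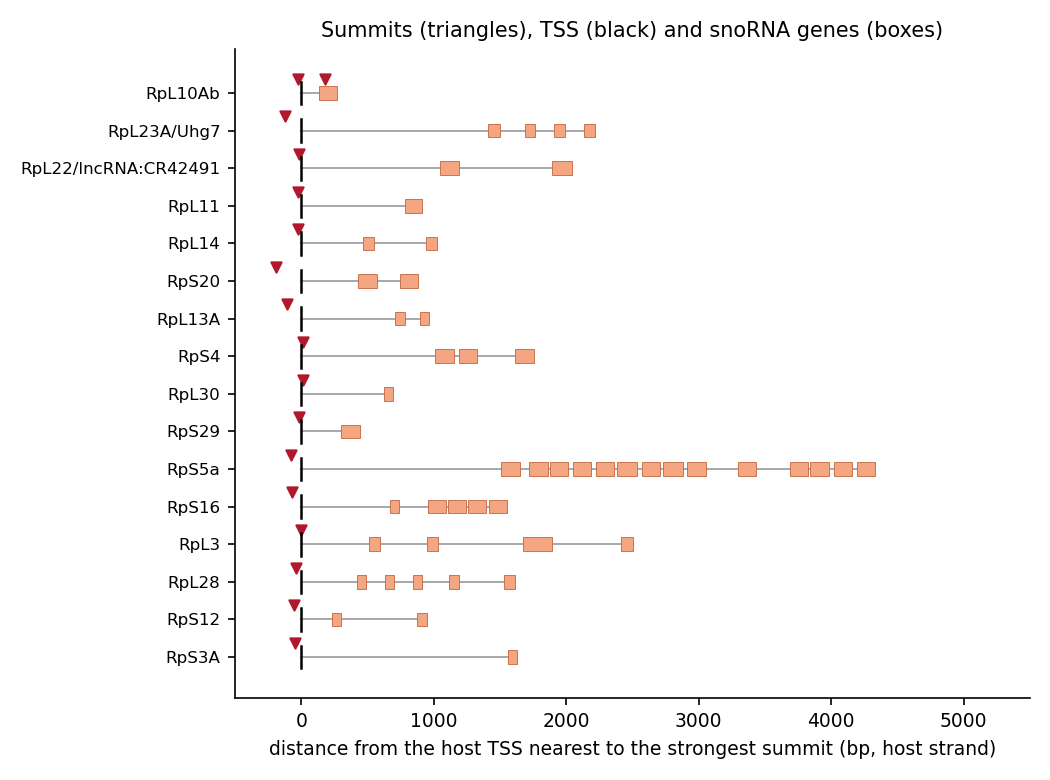
Each row is 1 of the 16 bound ribosomal protein host groups, drawn to scale on the host strand with the TSS nearest to the strongest summit at 0; triangles are optimal summits and boxes snoRNA genes. The summits lie from 190 bp upstream to 14 bp downstream of the TSS, apart from the second RpL10Ab summit, while the snoRNA genes lie downstream.

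Among the other coding hosts the strongest peak was at Usp10 (FBgn0052479), a gene for a ubiquitin-specific protease, at 3L from 872609 to 872861 with its summit 200 bp upstream of a TSS. Its signal was 516, rank 17 of the optimal list, with 256, 129 and 143 in the replicates (4.15 ± 1.38 on the relative scale, SD, n = 3). Replicate 1 was the highest and all 3 stood far above a typical peak. A second summit of signal 159 lay 211 bp away, 11 bp downstream of that TSS, and in replicate 3 the same call of signal 143 matched both. The nearer of the 2 snoRNAs in Usp10 started 17359 bp downstream of that TSS.

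Stt3A (FBgn0031149), a catalytic subunit of the oligosaccharyltransferase that glycosylates proteins, had a signal of 243 at X from 21054112 to 21054551 and 92.9, 110 and 44.0 in the replicates (1.86 ± 0.489). The summit lay 395 bp upstream of Stt3A and 214 bp from the neighbour bves, so the peak could belong to either promoter. CG1142 (FBgn0037504) had a signal of 214 at 3R from 7473730 to 7474169, 169 bp upstream, and 51.9, 117 and 44.7 in the replicates (1.63 ± 0.717). CG12316 (FBgn0036483) had a signal of 202 at 3L from 15136562 to 15137001, 152 bp downstream, and 67.0, 70.0 and 62.5 in the replicates (1.59 ± 0.258). Both genes hold a scaRNA that targets U5 snRNA, MeU5-C46 and MeU5-U42. Of Stt3A, CG1142 and CG12316, CG1142 varied most between replicates and CG12316 least.

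lola (FBgn0283521), which encodes BTB zinc-finger transcription factors of axon guidance, had a signal of 196 at 2R from 10535680 to 10536119 and 63.4, 75.4 and 45.0 in the replicates (1.43 ± 0.128). This summit lay 868 bp from a lola TSS and 760 bp from snoRNA:lola-a, so it was far from both. A second lola peak, of signal 91.3, had its summit 215 bp upstream of another lola TSS and was matched in 2 replicates. The remaining bound coding hosts were hfp (a splicing regulator, 143), Msp300 (a nesprin that anchors nuclei, 141), tou (a chromatin factor, 119), Arf1 (a GTPase of the Golgi, 113), mask (111), Irbp (a Ku subunit of DNA repair, 94.7), anchor (94.2), Fib (fibrillarin, 93.7), hts (adducin, 90.7) and drn (90.2). Of these 10, hfp, Arf1 and hts were matched in all 3 replicates. The peaks of Irbp and anchor were nearer to a start of the neighbours mgr and Vps60.

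**Figure D3:**
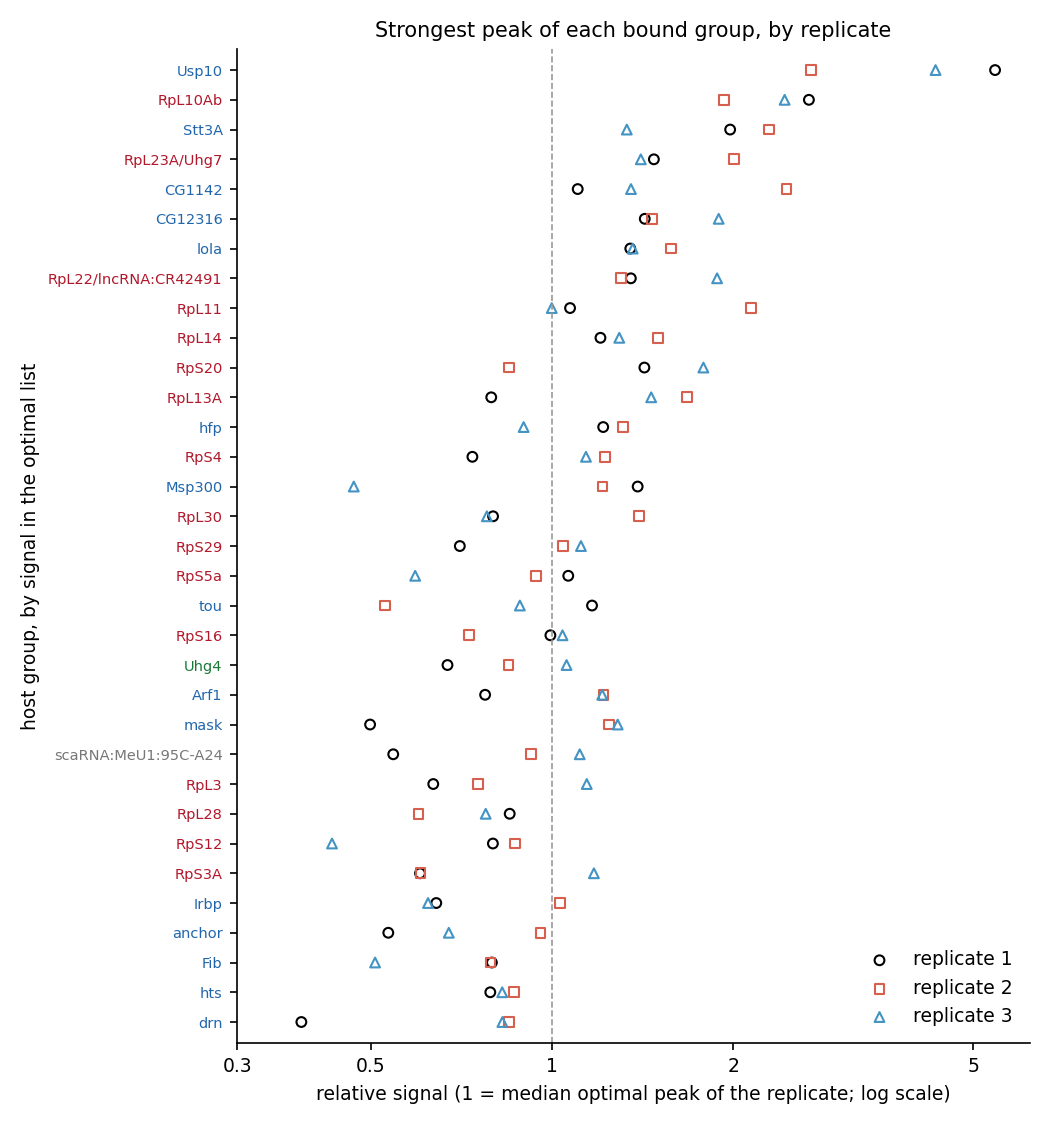
The vertical axis lists the 33 bound groups by signal in the optimal list (names of ribosomal protein hosts in red, other coding hosts in blue, the ncRNA host in green, the snoRNA without a host in grey), and the log axis gives the relative signal of the strongest peak in each replicate, with 1 as the median optimal peak. In 9 groups all 3 replicates are above 1, in 6 all are below 1, and 18 lie on both sides.

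Replicate support of member peaks was like that of the whole list. Of the 37 peaks, 17 were matched in all 3 replicates, 13 in 2 and 7 in 1, and the share matched in all 3 was 45.9% against 43.4% of all optimal peaks. The median relative signal was 0.862, 1.21 and 1.12 in replicates 1, 2 and 3, a mean of 1.06 ± 0.181 (SD, n = 3). Replicate 1 matched 26 of the peaks, replicate 2 matched 30 and replicate 3 matched 28. Host promoters thus had a peak more often (33.7%) than protein-coding genes as a whole (8.73%), while the peaks were of about the usual height. Ribosomal protein genes without a snoRNA had about the same share as all hosts, 33.9%, and of the 10 ncRNA hosts 1 was bound.

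Most peaks of hosted groups lay nearer to a host start site than to a snoRNA start. Of the 36 peaks of hosted groups, 33 were nearer to a host TSS than to a snoRNA start. The way peaks were chosen bears on this, since each had to lie within 1000 bp of either, and 17 lay within 1000 bp of both. Of the 247 hosted snoRNAs, 161 lay farther than 1000 bp from a host TSS. How near all optimal peaks lay to a TSS was not counted. Among the 36 peaks, the summit was within 100 bp of a host TSS in 20 and within 100 bp of a snoRNA start in 1, and within 250 bp in 29 and 3. The median absolute distance was 67 bp to the host TSS and 1027.5 bp to the nearest snoRNA start, and 27 of the 35 summits within 1000 bp of a host TSS were upstream of it. For 32 of the 36 peaks the nearest TSS of any protein-coding or host gene was that of the host. The 3 summits nearer to a snoRNA start were the second peaks of RpL10Ab and CG1142 and the first of lola.

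**Figure D4:**
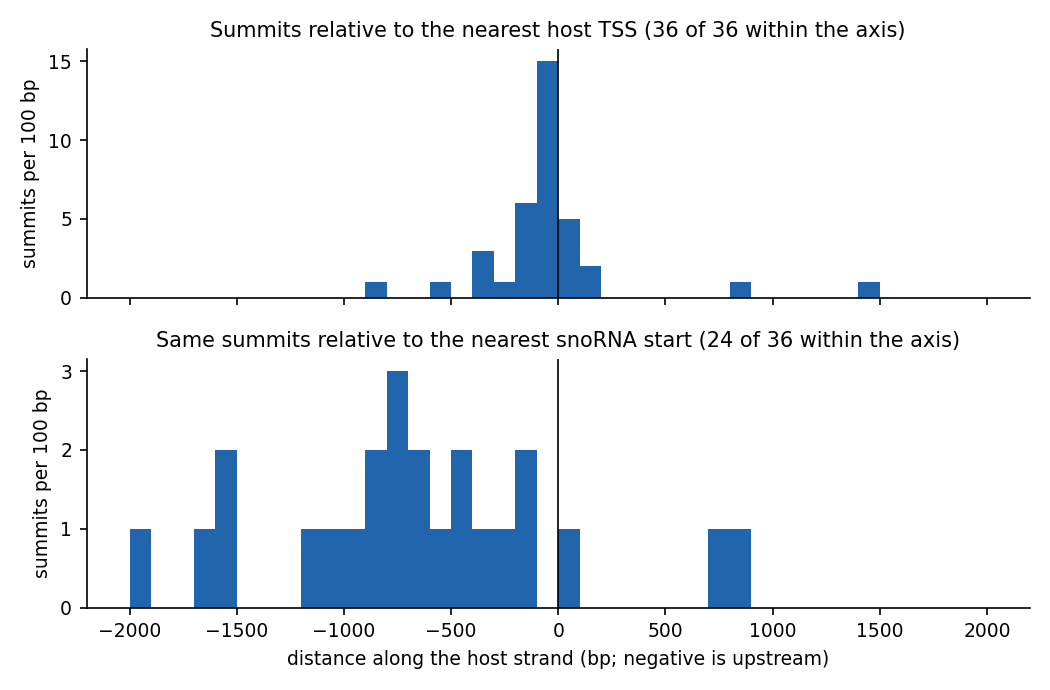
Both panels show the 36 peaks of hosted groups in bins of 100 bp, as distance along the host strand from the nearest host TSS (top) and from the nearest snoRNA start (bottom), with negative values upstream. The upper panel is concentrated at the TSS, with 20 summits within 100 bp, and the lower panel has 1 within that distance.

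At the snoRNA genes themselves the share with a peak depended on the distance allowed. A summit of the optimal list was within 1000 bp of the start of 25 of the 269 snoRNA genes (9.29%, interval 6.10 to 13.4%), against 7.77% of protein-coding 5′ ends. Neighbouring snoRNAs can share 1 summit, and 18 distinct peaks of hosted groups lay within 1000 bp of a snoRNA start. This interval is therefore too narrow, and the shares that follow also count each snoRNA separately. Within 250 bp the snoRNA share was 0.743% against 5.21%, within 500 bp 2.60% against 6.41%, and within 2000 bp 20.1% against 10.1%. The snoRNA share was thus the lower of the pair at the short distances and the higher at the long ones. Within 1000 bp the shares were 3.10% of 290 tRNA genes, 3.46% of 260 miRNA genes and 15.6% of 32 snRNA genes (5 genes, interval 5.28 to 32.8%). Of the 86 hosted snoRNAs within 1000 bp of a host TSS, 23 had a summit near (26.7%), and of the 161 farther away 1 had (0.621%), snoRNA:lola-a. These 23 cannot be told apart from binding of the host promoter at this distance. The median snoRNA lay 1433 bp from its host TSS and 13507 bp from the nearest optimal summit. Leaving out replicates changed the count of 25 to 15 without replicate 1 (5.58%), 11 without replicate 2 (4.09%) and 13 without replicate 3 (4.83%). Protein-coding 5′ ends stood at 4.16%, 4.64% and 4.49%, so without replicate 2 the snoRNA share was the lower of the pair.

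The share with a bound host was close between the main kinds of snoRNA. The host was bound for 22 of 77 methylation guides (28.6%, interval 18.8 to 40.0%) and for 31 of 106 pseudouridylation guides (29.2%, interval 20.8 to 38.9%). It was bound for 6 of 16 scaRNAs and 8 of 21 orphan snoRNAs, with wide intervals that hold both of those shares. snoRNAs of 1 host share a promoter, so these intervals are too narrow. By number of snoRNAs, 16 of 53 hosts of a single snoRNA were bound (30.2%), 9 of 18 groups with 2 or 3 snoRNAs (50%) and 7 of 19 with 4 or more (36.8%), and the intervals of all 3 overlapped.

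The 3 hosts with the most snoRNAs had no optimal peak. Arpc2, a subunit of the actin-nucleating Arp2/3 complex, holds 17 and had no relaxed pooled call within 1000 bp, none in replicate 1, and calls of 17.5 in replicate 2 and 23.9 in replicate 3. Its nearest optimal summit was 2039 bp away. Uhg1 holds 16, and its strongest pooled call had a signal of 53.9, with 20.5, 19.7 and 18.8 in the replicates. dom, the chromatin-remodelling ATPase Domino, holds 15. Its strongest pooled call had a signal of 48.6, and its strongest replicate calls had 20.1, 35.3 and 15.6. For these 3 hosts, each list's strongest call within 1000 bp of any host TSS or snoRNA start was taken. The calls were not matched in position between lists, so they can lie at different sites and away from the host TSS. The pooled calls of Uhg1 and dom lay under the lowest optimal signal of 88.6. Of the 11 groups with 7 or more snoRNAs, 2 were bound (18.2%, interval 2.28 to 51.8%), RpS5a with 14 and Uhg4 with 7. That interval holds the 8.73% of all protein-coding genes and the 29.5% of all groups.

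The noncoding Uhg hosts are genes whose spliced RNA encodes no protein and whose introns hold the snoRNAs. Uhg4 had an optimal peak of signal 114 at 2R from 9094995 to 9095434, 58 bp upstream of the TSS, with 31.5, 40.5 and 35.0 in the replicates (0.858 ± 0.193 on the relative scale, SD, n = 3). It was matched in replicates 2 and 3 and fell short of the highest calls in replicate 1. The strongest pooled call within 1000 bp of a host TSS or snoRNA start was read for the others. It had a signal of 79.7 at Uhg5, 67.4 at Uhg3, 55.8 at Uhg8, 54.9 at Uhg2, 53.9 at Uhg1 and 45.8 at lncRNA:CR31647. These 6 had relaxed calls in all 3 replicates but none past the IDR step. The noncoding hosts Uhg7, lncRNA:CR42491 and lncRNA:CR45184, which share snoRNAs with a coding host, had no optimal summit at their own start sites.

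Of the 22 snoRNAs outside a same-strand host, 1 was bound (4.55%, interval 0.115 to 22.8%), and that interval holds both the 7.77% of protein-coding 5′ ends and the 8.73% of protein-coding genes. It was scaRNA:MeU1:95C-A24 on 2L, a scaRNA of U1 snRNA, with a summit 596 bp from its start at 901266 to 901705 and a signal of 107 (25.6, 44.2 and 36.8 in the replicates, 0.860 ± 0.289 on the relative scale). The nearest protein-coding or host TSS was that of Lsp1beta, 2842 bp away. The 3 genes of U3, a snoRNA of ribosomal RNA processing that flies transcribe from its own promoters, had no optimal summit within 1000 bp. snoRNA:U3:9B had a pooled call of 34.7, and snoRNA:U3:54Aa and snoRNA:U3:54Ab had none.

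For groups, the threshold of 1000 bp lay in a sparse stretch. The groups just inside it were hts, with a summit 872 bp from a host TSS, and scaRNA:MeU1:95C-A24 at 596 bp, by the smaller of the distances to a TSS and to a snoRNA start. Just outside were the dystrophin gene Dys, 1200 bp away, and the chromatin remodeller kis, 1560 bp away. Starts of single snoRNAs lay closer to the threshold. Just inside were snoRNA:Psi28S-3327a at 997 bp and snoRNA:U49:66Db at 969 bp from a summit. Just outside were snoRNA:Me28S-U2134a at 1002 bp and snoRNA:lola-b at 1005 bp. In the relaxed pooled list, which holds background with peaks, 85 of the 95 hosts (89.5%, interval 81.5 to 94.8%) had a call within 1000 bp of a TSS, against 60.0% of all protein-coding genes. Of the 79 groups without an optimal peak, 66 had a pooled call (83.5%) and 53 had calls in all 3 replicates (67.1%). A call among the 1471 strongest was present at 8 (10.1%) in at least 1 replicate and at 0 in all 3. Of all protein-coding genes, 57.3%, 59.5% and 58.5% had a relaxed call in replicates 1, 2 and 3. A call among the 1471 strongest was present at 8.74%, 8.43% and 8.91% of them. Their shares with a relaxed call in all 3 replicates, or a strongest call in at least 1, were not counted. The strongest of the 79 groups, chosen after its values were seen, was RpL5 with a pooled signal of 88.6 at rank 1472, the first call below the optimal list.

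**Figure D5:**
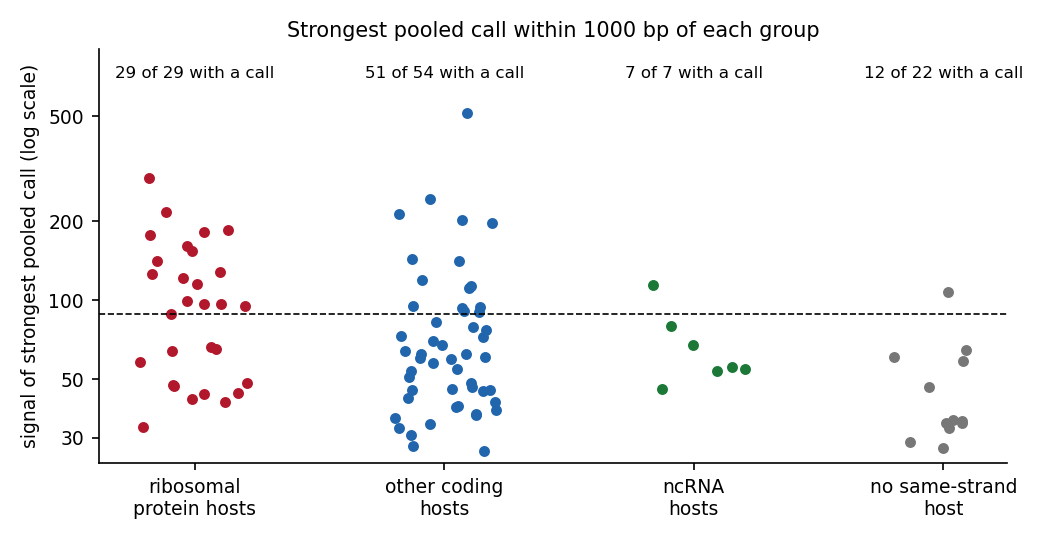
Each point is the strongest relaxed pooled call within 1000 bp of 1 group, on a log axis of signal, by class of host, and the dashed line is the lowest signal of the optimal list (88.6). The ribosomal protein hosts all had a call and a median of 96.8. Groups without a call are left out of the other medians. These were 60.9 for other coding hosts (51 of 54 groups), 55.8 for ncRNA hosts (7 of 7) and 34.8 for snoRNAs without a host (12 of 22). For all protein-coding genes with a call the median was 46.0. Groups with more start sites or snoRNAs had more positions searched.

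The genes that build snoRNA particles carried peaks about as often as other genes, within a wide interval. Of 24 genes for snoRNP core proteins, assembly and processing factors, 2 carried a peak (8.33%, interval 1.03 to 27.0%), against 8.73% of protein-coding genes. NHP2, a core protein of H/ACA particles, had a signal of 131 at 3L from 14801715 to 14802154, 233 bp downstream of the TSS, with 39.8, 60.4 and 33.8 in the replicates (1.04 ± 0.209 on the relative scale, SD, n = 3). Fib, the C/D methyltransferase and itself a host, had a signal of 93.7 at 2R from 23074538 to 23074977, 33 bp upstream, with 37.3, 37.8 and 16.8 in the replicates (0.698 ± 0.164). NHP2 was matched in all 3 replicates and Fib in 1. Of the others, the hosts nop5 and Nop60B had no pooled call within 1000 bp of a TSS, and neither did Gar1, CG10341 and Phax, which are not hosts. The ATPase rept had the strongest pooled call, of signal 84.3.

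Promoter words were counted in the 250 bases before and 50 after each gene's 5′ end. The initiator CCTTT or TCTTT with its central C within 10 bp of the TSS, on the gene's strand, was found in 14 of 29 ribosomal protein hosts (48.3%), in 54.2% of the ribosomal protein genes without a snoRNA, in 10.9% of other coding hosts and in 4.38% of all coding genes. Among hosts it was in 11 of 32 bound (34.4%) and 11 of 63 unbound genes (17.5%), with overlapping intervals of 18.6 to 53.2% and 9.05 to 29.1%. Of the 32 bound hosts 16 were ribosomal protein genes, and these shares were not split by class. Of all protein-coding genes with an optimal peak, 4.85% held the initiator word. TATCGATA, on either strand and overlapping the shorter word TATCGA, was in 27.6% of ribosomal protein hosts, 18.2% of other coding hosts, 0 of the 10 ncRNA hosts and 9.36% of all coding genes. It was in 6 of 32 bound hosts (18.8%, interval 7.21 to 36.4%) and in 13 of 63 unbound ones (20.6%, interval 11.5 to 32.7%), and the difference was not tested. GGTCACAC, a core promoter word searched on both strands, was in 2 of 32 bound and 9 of 63 unbound hosts, and in 7.70% of all coding genes.

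TATCGATA, TATCGA and GGTCACAC were also counted around the summits, and the initiator word was not. The stretch searched there was shorter than at the promoters, so these shares cannot be set against the promoter shares. Within 50 bp of the summit TATCGATA lay at 3 of the 37 member peaks (8.11%) and at 3.33% of all optimal peaks, and TATCGA at 7 (18.9%) and at 11.1%. GGTCACAC lay at 1 member peak and at 1.22% of all. Of the promoters printed above, RpL10Ab and RpS12 hold TATCGATA, and RpL14 holds the initiator word at 2 positions near the TSS. Those of RpL30, RpS4, Usp10 and CG12316 hold neither TATCGA nor the initiator word near the TSS in these 100 bases.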

How the data were processed

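Chromatin immunoprecipitation of Neu2-GFP was sequenced from 3 biological replicates, which formed 1 group. The authors deposited narrow peak lists on dm6: an optimal list past their IDR step and relaxed lists, with background, of the pooled data and of each replicate (30000 calls each). The signal value of each call is the authors' own, and its scale differs between lists. The −log10 q-value that the authors deposited is capped in every list and was not used. The deposited summit offset (another measure, in bp) gave summit positions. The peak caller, aligner, software versions and cut-off of the IDR step are not given in the sources used here, the control experiment was not analysed here, and the depth is unknown, so intervals cover the counting error of genes or groups only.

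Genes came from Ensembl release 115 (BDGP annotation 6.54), and sequences from the RefSeq copy of dm6, within whose arm lengths all calls and genes ended. Counts were made with Python 3.11.15, numpy 2.4.6, pandas 2.3.3, scipy 1.17.1 and matplotlib 3.10.9, and the look-ups were tested on simulated data. Hosts were same-strand genes, and 5 ncRNA genes named as snoRNAs or scaRNAs were not members. Ribosomal protein genes were the 88 genes with RpS or RpL symbols and sta, without paralogues named as like them. In the snoRNP list 2 of 24 symbols were matched by a synonym.

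The named genes were the 12 bound groups of highest signal, all ncRNA hosts, the groups next to the distance limit, the 3 hosts with most snoRNAs, bound snoRNAs without a host and bound snoRNP genes; other bound groups are named with their signal. The members and lists were chosen with earlier results of these data known. No enrichment test was made. Alternatives were other windows, stricter peaks, other host and TSS definitions, and leaving out each replicate.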

Additional observations from a re-analysis of the deposited data

How the results depend on the processing

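Of 47 alternative values, 19 stayed within 1.5 times the reported count, or within 1 SD of the relative signal, and 28 moved. The 33 bound groups became 16 when peaks had to be matched in all 3 replicates, 18 when only peaks at or above the median signal counted, 17 of 83 (20.5%) without ribosomal protein hosts, and 18 to 21 when each replicate was left out. The 32 bound hosts became 16, 18, 16 of 66 (24.2%) and 18 to 20 under the same settings. Protein-coding genes fell to 4.12% when matched in all 3 and to 4.85% at or above that median. The 25 snoRNA starts became 2 within 250 bp (5.21% of protein-coding 5′ ends), 7 within 500 bp (6.41%) and 54 within 2000 bp (10.1%), 10 when matched in all 3 replicates, 12 at or above that median, and 11 to 15 when each replicate was left out. By construction fewer peaks enter the stricter peak sets, and a wider window admits more positions. The 33 summits nearer to a host TSS became 16 of 17 when matched in all 3, and 18 to 21 when each replicate was left out. The 2 snoRNP genes became 1 when matched in all 3 and 1 when any replicate was left out. The bound hosts numbered 27 to 35 over windows of 250 to 2000 bp, 28 when the host's own TSS had to be the nearest and 34 of 109 with hosts on either strand. The median relative signal ranged from 0.989 to 1.16. No paired analysis was possible because the samples form 1 group.

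Depth could not be read from the lists, and a group without an optimal peak is not shown to be unbound.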
